A study of Mus musculus with 2 samples.

Results

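Contigs are stretches of the genome that the authors' list gives as covered by sequenced RNA on 1 strand. The authors deposited 1 list of 628453 such contigs for mouse heart, on the mm9 build. The long contigs described here are the 4609 rows (0.733%) with a length of at least 3000 nucleotides and a deposited significance value of at most 0.1. No source used here defines that value. The members were thus chosen by their measured length and significance, and both are given as a description.

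The RNA was poly(A)-selected and longer than 200 nucleotides, from the heart of C57BL/6J mice, an inbred laboratory strain, aged 8 weeks. Both libraries form 1 group, untreated as far as the labels say, and the labels describe both as pools of male and female littermates with the same donor record. Ribosomal RNA was depleted, spike-in RNAs were added, and the libraries kept the strand. Nothing in the labels ties the replicates to separate animals beyond naming them biological replicates. They held 57464573 and 62912053 estimated counts per the deposited gene tables, with reads of 76 nucleotides from both ends of each fragment. As a check of the tissue, the cardiac genes Myh6, Tnnt2, Actn2 and Ryr2 had between 47556 and 636398 estimated counts in both libraries. The contig list names no library, so no spread between replicates can be given for any contig, no test between conditions exists, and every value below is a description of 1 list. Intervals given for shares are Wilson 95% intervals and cover counting error only.

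A mature messenger RNA is made by cutting introns out of a primary transcript and joining the exons, and reads that cross such a join show up as splice junctions. The exon at the 3′ end, which carries most of the 3′ untranslated region and the poly(A) site, is often the longest exon of a mammalian gene, while most internal exons are short. A long contig in poly(A)-selected RNA can thus be 1 long exon, several exons together with the introns between them, or a stretch of intron alone. Heart muscle RNA is known for very abundant transcripts of contractile and mitochondrial proteins. Genes are not named for the contigs, since the annotation used here is on another build and coordinates were not converted. Positions are mm9, counted from 1.

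The long contigs covered 20.8 Mb in all, which was 13.2% of the 157 Mb covered by the 279122 contigs that passed the same limit on significance. Their median length was 3988 nucleotides, with quartiles of 3399 and 5014, and the 90th percentile was 6496. Only 64 reached 10000 nucleotides, and the longest had 31174. The length distribution had no step at the chosen limit, since 312 members lay within the first 100 nucleotides above 3000 and 371 contigs within the 100 below it. Exactly 3000 nucleotides were covered by 6 members, such as chr16:35152548-35155547, chr18:73749224-73752223 and chr19:60600611-60603610, at levels of 0.511, 4.88 and 3.11. Just outside stood chr12:86681564-86684562 and chr18:5098858-5101856, each 1 nucleotide short, at 18.3 and 9.81, and chr10:20059858-20062855 at 3.95. The limit on significance removed only 3 contigs of this length. The value was 0 for 4591 members and at most 0.08 for the other 18, whereas the 3 contigs left out, chr1:158575299-158579753, chr2:31147702-31150992 and chr8:107119260-107122926, had 0.17, 0.17 and 0.5. The members nearest to the limit were chr11:68637031-68641149 and chr6:34821898-34826144 at 0.08 and chr4:132135162-132138598 at 0.07, with levels of 1.56, 1.51 and 1.66. Of all contigs that passed the limit, 52.1% had a value of 0.

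**Figure D1:**
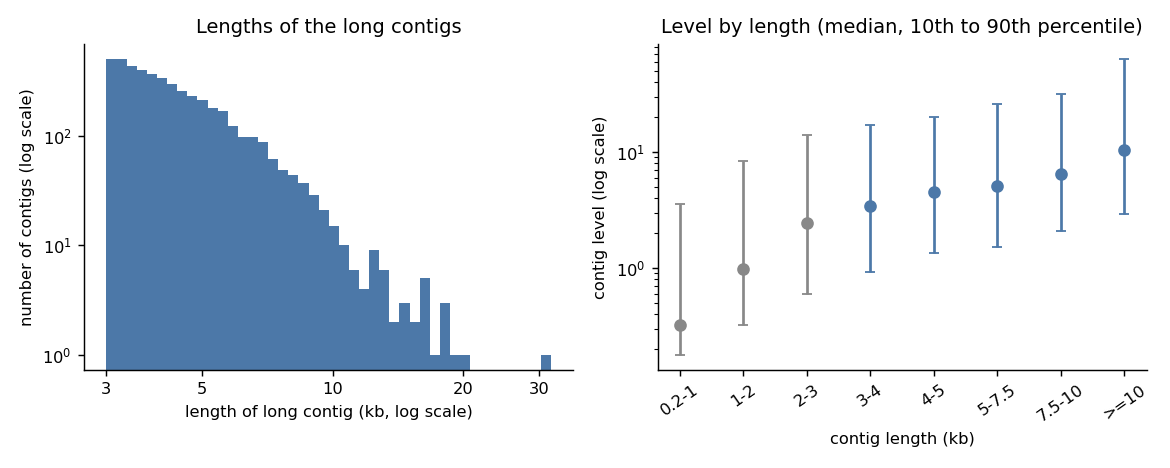
Left, number of long contigs by length in kilobases, both axes logarithmic; the count is highest just above 3000 nucleotides and ends with a single contig of 31174. Right, median level (points) with the 10th to 90th percentile (bars) by contig length, level axis logarithmic, shorter contigs in grey and long contigs in blue; the median goes from 0.325 at 200 to under 1000 nucleotides to 10.5 at 10000 nucleotides and more.

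The level of a contig is the authors' deposited value. It equals the summed read bases of the contig divided by its length and by a constant of 18.2, so it can be read as bases of reads per kilobase of contig and per Mb of all reads. The long contigs had a median level of 4.12, with quartiles of 2.01 and 8.87 and a range from 0.26 to 20600. In reads per nucleotide the median mean coverage was 74.8, and 80% of members lay between 20.4 and 378. A level of at least 100 was reached by 74 members, and 361 stood below 1. Shorter contigs that passed the same limit had lower medians, 0.325 for the 195644 of 200 to under 1000 nucleotides and 1.22 for the 26987 of 1000 to under 3000. The 51882 contigs under 200 nucleotides had 1.77. The significance limit acts unevenly by length, since it removed only 3 long contigs while 279122 of all 628453 contigs passed it. Whether the significance value depends on level is not known, so these medians are not a property of length alone. Within the members, length and level were only loosely related (Spearman rho 0.20 across 4609 contigs of 1 list, which share depth and calling). The part of coverage in where a contig ends was not tested.

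Long contigs were few but held much of the signal. Level multiplied by length, summed over members, was 53.7% of the sum over all contigs under the limit. The 2 members on the mitochondrial genome alone held 19.6%. Without the mitochondrial genome the members' share was 42.4%.

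Members were split evenly between the strands, with 2304 on the plus strand and 2305 on the minus strand (49.99% plus, interval 48.5% to 51.4%). Median levels were 4.12 and 4.11, and median lengths 3965 and 4018 nucleotides.

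Members lay on every autosome, on chromosome X and on the mitochondrial genome. Chromosomes 2, 11 and 7 held the most, with 408, 396 and 339. As a share of all contigs under the significance limit, the nuclear chromosomes ranged from 1.22% on chromosome 12 to 1.92% on chromosome 11, around 1.65% in the whole list. Chromosome X had 83 members, 1.23% of its 6735 contigs (interval 1.00% to 1.53%), and its highest level was 69.1. Median levels by nuclear chromosome stayed between 3.43 on chromosome 13 and 5.12 on chromosome 8. Chromosome Y had no member: its 18 contigs reached at most 265 nucleotides.

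**Figure D2:**
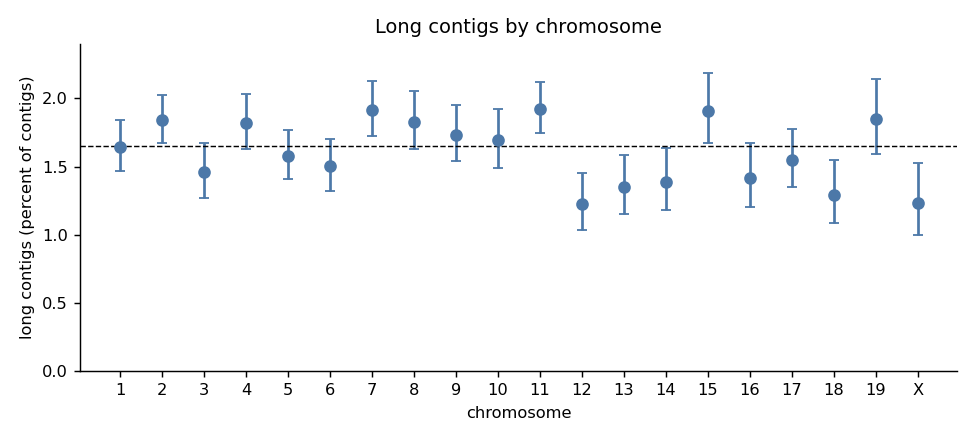
Long contigs as a percent of all contigs that passed the significance limit, by nuclear chromosome (points), with Wilson 95% intervals (bars) and the share in the whole list of 1.65% (dashed line). Chromosomes 7 and 11 reach 1.92%, and chromosomes 12 and X stand lowest at 1.22% and 1.23%.

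The deposited list of splice junctions, on the same build, was joined to the contigs to show how each one sits in a transcript. A junction counted when it had at least 10 reads and lay on the contig's own strand, and it joined the contig on 1 side when 1 edge of its intron lay in the contig, or within 10 nucleotides of it, and the other edge lay outside. The most frequent position was to be joined to other sequence on the 5′ side and not on the 3′ side. It was taken by 2303 of 4609 members, or 49.97% (interval 48.5% to 51.4%). A further 1107 (24.0%) were joined on both sides, 950 (20.6%) on neither side, and only 249 (5.40%) on the 3′ side alone. Joined on the 5′ side only is the position that a last exon takes in a spliced transcript, and joined on the 3′ side only is that of a first exon.

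Shorter contigs under the same significance limit had another make-up. Among those of 1000 to under 3000 nucleotides, 20.1% were joined on the 5′ side only and 6.65% on the 3′ side only, and among those of 200 to under 1000 nucleotides 3.15% and 5.09%. Contigs joined on neither side made up 47.1% and 73.9% of these classes. Contigs under 200 nucleotides, the size of many internal exons, were mostly joined on both sides (57.0%), with 7.48% on the 5′ side only and 11.9% on the 3′ side only. Within the long contigs, the 5′-only share was 45.1% at 3000 to under 4000 nucleotides and 56.0% at 4000 to under 5000, and it was 40.6% (interval 29.5% to 52.9%) for the 64 of at least 10000. Junctions and contigs come from the same reads, and a higher level brings more junctions past the limit of 10 reads, so no test of these differences was made. The part of coverage in them was not tested.

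**Figure D3:**
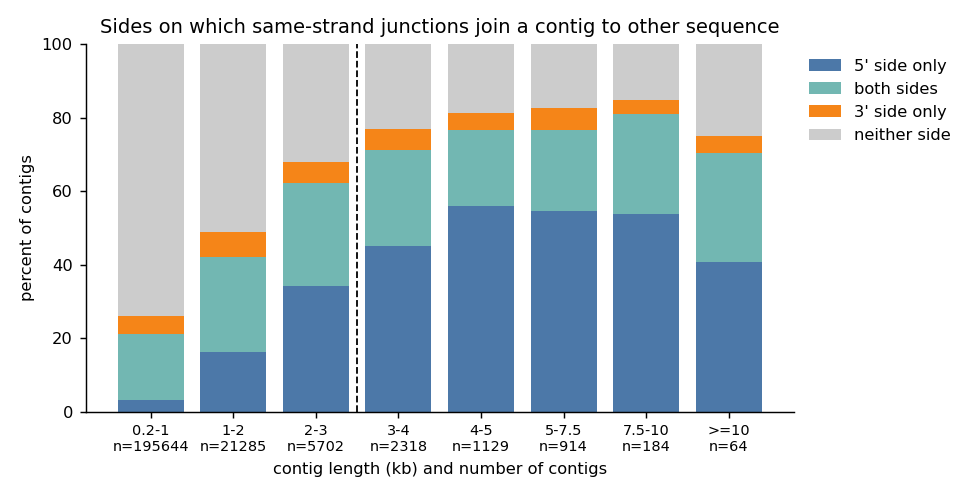
Percent of contigs (stacked bars) joined by same-strand junctions of at least 10 reads on the 5′ side only, on both sides, on the 3′ side only or on neither side, by contig length, for contigs that passed the significance limit; long contigs stand right of the dashed line. The 5′-only share is 3.15% at 200 to under 1000 nucleotides and 56.0% at 4000 to under 5000, and among long contigs the 3′-only share is at most 6.02%.

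The largest single kind at the limit of 10 reads was the contig joined on the 5′ side only with no intron inside, with 1404 members (30.5%). With a limit of 2 reads 60.9% of all members had an intron inside, against 43.0% here, so the size of this kind rests on that limit. The 1404 had a median length of 3967 nucleotides and a median level of 4.71, with quartiles of 2.74 and 8.64. In 1253 of them (89.2%) 1 junction made the link, and the most used link had a median of 74 reads, or 0.854 reads for each read of mean coverage. The contig often ran past that splice edge into the intron upstream. The edge lay within 10 nucleotides of the contig's 5′ end in 376 members (26.8%), and more than 100 nucleotides inside the contig in 737 (52.5%), with a median of 126 nucleotides. From the splice edge to the 3′ end of the contig the median distance was 3638 nucleotides, and the longest was 14726.

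The longest of this kind was chr18:80478422-80494364 on the minus strand, with 15943 nucleotides, a level of 17.8 and a single 5′ link of 1051 reads. Contigs of the opposite strand covered 6704 nucleotides of it, the highest at a level of 8.92. Next came chr4:56879848-56893165, with 13318 nucleotides, a level of 7.62 and 84 reads on its link. By level the first was chr14:63760868-63764757, at 98.8 over 3890 nucleotides with 1009 reads on its link. It was followed by chr1:73956739-73961797 at 88.3 and chr11:31446181-31449994 at 83.2. The last 3 had no opposite-strand contig, and each was linked by 1 junction.

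An intron lay wholly inside 1980 members (43.0%, interval 41.5% to 44.4%), so that the contig ran on through the spliced-out sequence. The share was 17.7% among contigs of 1000 to under 3000 nucleotides and 1.81% among those of 200 to under 1000, which have less room for one. Of the 1980, 614 (31.0%) had 1 such intron, 579 (29.2%) had at least 5 and 18 had at least 20. Each inner junction of at least 10 reads counted as 1 intron, here and below, so introns that overlap were counted separately. The intron share of the length is that of their joined spans, which can hold exons that a junction skips. Over the 1980 members this share had a median of 47.0%, with quartiles of 23.7% and 69.0%. Introns made up over 50% of the length in 935 members, or 20.3% of all. Members with an intron inside had a median level of 6.04, and the 2629 without one had 3.04. A lower level leaves more junctions short of 10 reads, so both groups are in part sorted by level. With a limit of 2 reads 60.9% of members had an intron inside, and with 50 reads 36.1%. Level and the intron share of the length showed almost no rank relation across the 1980 (Spearman rho -0.02, contigs of 1 list).

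Most members with an inner intron had many reads across it. The most used inner junction had a median of 2.37 reads for each read of mean coverage, with quartiles of 1.12 and 4.26. A mean over introns and exons together is lower than the coverage of the exons, so a ratio above 1 does not give the spliced share. In 47 members (2.37%) the ratio was under 0.1. These 47 include both mitochondrial members and the highest nuclear one, described below, and among the least supported was chr19:5794797-5802664, with a level of 239, 7868 nucleotides, no outward link and 16 reads on its most used inner junction.

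**Figure D4:**
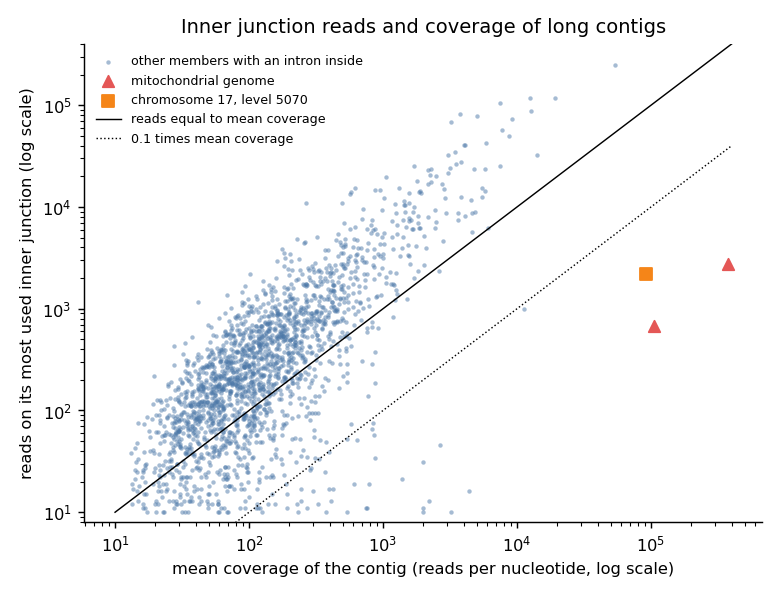
Reads on the most used inner junction against mean coverage, both axes logarithmic, for the 1980 long contigs with an intron inside (points); the solid line marks reads equal to mean coverage and the dotted line 0.1 times it. Most points lie above the solid line, while the mitochondrial contigs (triangles) and the contig of level 5070 on chromosome 17 (square) lie far below the dotted line.

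The highest levels were on the mitochondrial genome, a small circular genome that is copied into long RNAs from both strands and carries no introns. The member chrM:22-6943 on the plus strand had a level of 20600 and a mean coverage of 374318, computed from the level because its deposited sum is capped at 1073741823. The second, chrM:7765-16299, had a level of 5770. Between them lay a plus-strand contig of 690 nucleotides, chrM:7005-7694, with a level of only 6.81. The minus strand held 1 contig, chrM:9261-10047, with a level of 5.27. The junction list placed 65 and 60 introns inside the 2 members, but their most used junctions had 2750 and 676 reads, 0.00735 and 0.00645 for each read of coverage. The counts of junction links of these 2 members therefore rest on a very small share of their reads.

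The third was chr17:39979942-39985775 on the plus strand, at 5070 over 5834 nucleotides. It also had few junction reads for its coverage, with 2208 on its most used inner junction against a mean coverage of 92192. A single outward link had 10 reads. What RNA this contig holds was not examined, and it is counted in the members' share of 42.4% without the mitochondrial genome. Of its junction reads, 3318 were marked R1 and 1373 R2. The fourth, chr2:113872930-113879616, differed in this respect. It had a level of 2960 over 6687 nucleotides and 53 inner junctions, whose joined introns spanned 77.9% of its length. With 972906 reads on these junctions, it had the most of any member. Its most used junction had 249559 reads, 4.65 for each read of coverage, and only 10 reads linked it to other sequence.

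After these came chr15:76845818-76853254 at 1050 with 18 introns inside, chr7:4471474-4476019 at 771 with 17, and chr18:78016894-78022912 at 695 with 15. The contig chr10:127520294-127527447, at 693, had 22 introns inside and no outward link of at least 10 reads. Links with fewer reads were not counted. No outward link was counted for chr8:47288108-47296502 either, at 503 with 14 introns inside. The contig chr10:53061141-53067318, at 620, was of the other kind. Its 33454 outward reads all joined its 5′ side, and its most used inner junction had 1000 reads, 0.0887 for each read of coverage.

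The longest member was chr14:55556100-55587273 on the minus strand, with 31174 nucleotides. It had a level of 326 and a mean coverage of 5916. Inside it lay 63 introns with 796463 reads, and introns took up 64.8% of its length. A further 44 junctions with 110398 reads led from its 5′ side to sequence upstream, against 34 reads on its 3′ side. The outward count was the highest of all members. At higher coordinates, on the plus strand, lay another of the 12 longest, chr14:55605531-55623990. With 18460 nucleotides, it had a level of 15.8, 2667 reads on its 5′ links, and 9 contigs of the opposite strand over 3642 of its nucleotides.

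The other members among the 12 longest had 15936 to 19916 nucleotides and differed widely in make-up. The contig chr5:122901488-122919836, on the minus strand, had a level of 427 and 38 introns inside with 357339 reads. In chr12:113027533-113044346 and chr19:40370601-40386987 introns took up 97.6% and 91.3% of the length, at levels of 8.26 and 10.9. In chr2:76574121-76592374, with 18254 nucleotides and a level of 13.3, introns took up only 1.18% of the length, and it was joined by 422 reads on the 5′ side and 44 on the 3′ side. Its 2 inner introns had 348 reads, 208 of them on the most used one. No junction of at least 10 reads touched chr2:180120255-180139774, with 19520 nucleotides and a level of 8.82. The rest of the 12, on chromosomes 2, 10, 13, 14 and 18, had levels between 5.21 and 68.0.

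By nuclear chromosome, the longest member outside the 12 longest reached between 7664 nucleotides on chromosome X and 15814 on chromosome 17. The latter, chr17:10395393-10411206, had a level of 25.8, and chr7:150241212-150256995 had 15784 nucleotides at 24.6. The highest level among them was 206, for chr9:66874705-66889513 with 14809 nucleotides. The lowest was 3.14, for chr6:118577402-118591036 with 13635. The shortest longest member of an autosome was chr11:104438527-104448552, with 10026 nucleotides and a level of 52.3, although chromosome 11 held the second most members.

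Next after the longest contig in outward junction reads came chr8:123193083-123198162, with 59136 reads on 13 junctions of its 5′ side and a level of 222. The contig chr9:110666074-110670069, at 408, had the reverse position, with 48648 reads on 7 junctions of its 3′ side and 10 introns inside. Both sides were heavily used in chr7:19999922-20002998, with 35729 reads on the 5′ side and 13656 on the 3′ side at a level of 479. The same held for chr1:43182702-43186934, with 16856 and 25940 reads over 4233 nucleotides, a level of 102 and no intron inside.

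No junction of at least 10 reads touched 797 members (17.3%, interval 16.2% to 18.4%). They were the weakest kind, with a median level of 1.38 against 4.12 over all members. The 5 lowest levels of all members, 0.26 to 0.357, belonged to this kind. At such coverage a junction can fall short of 10 reads, and with a limit of 2 reads 9.46% of members had none, against 33.7% with a limit of 50. The longest of the 797 were chr2:180120255-180139774, named above, and chr13:12141965-12156953 with 14989 nucleotides at 1.29. Then came 3 contigs of chromosome 16 with 12048 to 13289 nucleotides at 3.28 to 10.1. Some of the 797 were well covered all the same. By level the highest were chr17:56396210-56403101 at 43.8 over 6892 nucleotides and chr10:116482207-116490377 at 34.7 over 8171, the latter with an opposite-strand contig at 36.5.

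Of these 797, 227 (28.5%) lay inside an intron of their own strand, that is, a junction with at least 10 reads jumped over the whole contig. Over all members, with or without a junction, that share was 11.2%, and over all contigs of 200 to under 1000 nucleotides 50.5%. Of the contigs of 1000 to under 3000 nucleotides that no junction touched, 6766 of 12477 lay inside such an intron. Longer contigs fit wholly inside fewer introns. The 227 had a median level of 0.905, and the other 570 had 1.66. A shared intron held 2 or more of them in 17 cases, with 54 members in all and introns of 11499 to 272276 nucleotides. The most crowded was an intron of 272276 nucleotides on the minus strand, chr6:118730343-119002618, which was crossed by 58 reads and held 11 members of 3046 to 4699 nucleotides. Their levels lay between 0.432 and 1.20 and had no order along the intron.

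In the next, chr13:12038270-12198665, crossed by 449 reads, 9 members lay in an intron of 160396 nucleotides on the minus strand. Read in the direction of transcription, the levels of the first 7 were 1.78, 1.46, 1.43, 1.29, 1.11, 0.837 and 0.713, each lower than the one before. The last 2, beyond the end of that series, had 0.759 and 1.26. Just upstream, the member chr13:12182857-12199164, with 16308 nucleotides and a level of 5.21, held the 5′ edge of this intron and continued into it, and its 449 outward reads were on its 3′ side. Together with the first 7 it formed the longest run of members on 1 strand, 8 contigs that covered 71.9% of 89534 nucleotides. The falling order was not general. Over the 17 introns the upstream neighbour had the higher level in 21 steps and the downstream neighbour in 16, and over 1168 introns with contigs of 1000 to under 3000 nucleotides the upstream one was higher in 50.3%.

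Members often stood close together. Counting members on 1 strand with at most 10000 nucleotides between them, 1280 (27.8%) stood in 561 runs, of which 455 had 2 members, 76 had 3 and 30 had 4 or more. In 182 neighbouring pairs the gap was at most 100 nucleotides, and the smallest was 11. With contigs at most 100 nucleotides apart joined first, 9003 contigs passed the limits, at a median level of 2.71. A run of 6 on chromosome 2, from 76721719 to 76763297 on the minus strand, covered 91.6% of its 41579 nucleotides at levels from 0.557 to 12.8. Another of 5 on chromosome 5, from 122901488 to 122953293, went from 1.38 to 427.

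A contig of the opposite strand, under the same significance limit, overlapped 692 members (15.0%, interval 14.01% to 16.07%), against 9.42% of contigs of 1000 to under 3000 nucleotides. With opposite contigs of any significance the share of members was 25.2%. Longer contigs have more room for such an overlap. The overlap was usually short, with a median of 573 nucleotides or 12.8% of the member, and it covered over 50% of the length in 94. The member was the stronger side in most, with a median level of 4.81 against 0.941 for the highest opposite contig. Opposite contigs could be of any length, and shorter contigs under the same limit had lower levels in general. Their medians were 0.325 at 200 to under 1000 nucleotides and 1.22 at 1000 to under 3000. In 159 of the 692 (23.0%) the opposite contig was higher. The largest such value was 335, over chr10:127799526-127806300, whose own level was 38.6.

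In 48 cases both partners were long contigs. Their 3′ ends overlapped in 29, their 5′ ends in 15, and 1 lay inside the other in 4. The shared stretch had a median of 1691 nucleotides and ranged from 25 to 5326. The pair with the strongest weaker partner was the one just named. Its plus-strand contig, chr10:127795941-127799551, had a level of 335 and met the minus-strand one over 26 nucleotides. More even pairs were chr17:24730024-24733438 at 17.5 against chr17:24732866-24737029 at 19.5, with 573 shared nucleotides, and chr11:98624801-98630462 at 20.4 against chr11:98629207-98636727 at 34.9, with 1256. In all 3 the 3′ ends overlapped.

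The junction list splits the reads of each junction into R1 and R2, without saying what these marks stand for. On the junctions of the 2729 members with at least 100 such reads, the share marked R1 had a median of 54.6%, against 57.8% over all junction reads, and 89.8% of these members lay between 40% and 70%. Only 5 were under 20% and 6 over 80%. At the low end stood chrX:100669054-100675623, with 6570 nucleotides, a level of 5.46 and 110 junction reads, all marked R2. The longest member of that chromosome, chrX:100655801-100663464, lay close by on the same strand with a level of 8.70, and its 81 junction reads were also all R2. The labels describe both libraries as pools of male and female littermates. Whether this split follows library or sex was not tested. At the other end chr1:90155689-90163234 had 147 reads marked R1 and 6 marked R2, and its neighbour chr1:90167804-90173865 had 151 and 30.

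**Figure D5:**
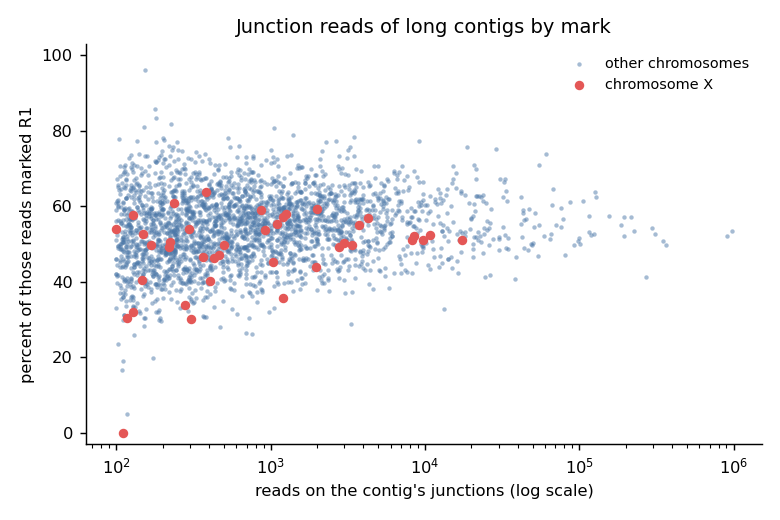
Percent of a long contig's junction reads marked R1 against the number of those reads (logarithmic axis), for the 2729 members with at least 100 such reads, chromosome X in red. The points centre on a median of 54.6%, and 1 contig of chromosome X lies at 0.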

How the data were processed

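Adult mouse heart RNA was measured in 2 libraries. The names of the deposited files put the contig and junction lists on mm9, and each list was deposited once for the series. The sources used here do not give the aligner or caller. The deposited contig values are a level (a signal) and a summed coverage signal, a significance fraction and a display score, the last not used. The coverage signal divided by length and level was constant (18.2, 1st to 99th percentile 18.1 to 18.3), and of 324275 contigs with a sum up to 760 it was a whole multiple of the read length, 76, in 59.3%, against 1.32% if spread evenly, so it was read as summed read bases. The constant stands for 18171 Mb of reads, beside 18297 Mb for both libraries' estimated counts with 2 reads each. Whether the libraries were pooled is not stated. The deposited count per junction equals R1 plus R2 in all 362268 rows. A deposited score and significance fraction of junctions served no main result. The deposited expected counts of the gene tables gave library totals and the tissue check only.

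Contigs were joined to junctions as the report states. Medians, shares, overlaps and Wilson 95% intervals were computed with Python 3.11.15, numpy 2.4.6, pandas 2.3.3 and scipy 1.17.1, and the joining was tested on simulated data. Regions named are the longest, highest and lowest members, the longest by chromosome, those with most junction reads, the longest without a junction, overlapping pairs, mitochondrial members and those at the limits. Those named by R1 share, shared intron, run, inner support, or level within a kind were picked with their values already in view. The members and the measures were chosen with earlier results of these data known. Overlapping genes and sequences were not analysed here.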

Additional observations from a re-analysis of the deposited data

How the results depend on the processing

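No paired analysis was possible because there is 1 group and the contig list names no library; for the same reason leaving out a library could not be run. Of 82 alternative values, 48 stayed within the main value's 95% interval (or within 1.5 times the main number) and 34 did not. For medians that interval was a binomial one from the ranked values, and for shares the Wilson interval. Limits on significance from 0.01 to none, leaving out the mitochondrial genome, and edge distances of 0 or 50 nucleotides moved none of the results they were run on, nor did asking junctions for a significance of at most 0.1 or, an alternative chosen after seeing the data, for reads of at least 0.1 times the mean coverage. The limits on significance left 4598 to 4612 contigs, and leaving out the mitochondrial genome 4607, beside 4609 members. With so few contigs changed, these alternatives could hardly move a value.

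With a length of at least 2000 there were 10311 contigs of median length 2853 and median level 3.19, with 41.2% joined on the 5′ side only, 24.5% with no junction, 35.3% with an intron inside and 13.1% overlapped on the opposite strand. At 5000 these were 1162, 6070, 5.49, 53.8%, 12.7%, 53.9% and 20.1%. With contigs at most 100 nucleotides apart joined first, 9003 contigs passed, with median length 4277, median level 2.71, 42.9% joined on the 5′ side only, 50.9% with an intron inside and 16.6% overlapped. The share joined on the 5′ side only was 47.5% with junctions of at least 2 reads, 38.0% with 50, 45.9% with R1 reads only and 46.4% with R2 only. The share with no junction was 9.46%, 33.7%, 22.8% and 22.6% in that order, and the share with an intron inside 60.9%, 36.1%, 40.4% and 40.1%. An opposite-strand overlap of at least 200 nucleotides was found in 12.02%, and with opposite contigs of any significance in 25.2%. Contig number thus depends on how gaps are joined, and junction shares on depth, by construction of these alternatives.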

Other observations

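In the whole list no 2 contigs of the same strand were closer than 11 nucleotides, and 6655 neighbours had a gap of exactly 11. Of neighbouring pairs of members, 57 had a gap of at most 20 nucleotides.

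Contigs joined on neither side but with introns inside, 153 members, had a median level of 9.43, against 1.38 for the 797 without any junction. A junction of at least 10 reads separates these groups, so they are in part sorted by level. Of these 153, 36.6% were overlapped by an opposite-strand contig, against 15.0% of all members and 19.1% of all with an intron inside. Among members with an intron inside the share was 24.1% for those joined on the 5′ side only. It was 27.6% for the 3′ side only and 8.43% for both sides. The 153 were also longer, with a median of 4380 nucleotides against 3988 over all members. They had a median of 4 introns inside.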
